A study of Homo sapiens with 6 samples.

Results

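The C/EBP genes encode transcription factors that were followed here in SW839, a long-established line of renal carcinoma cells, after knockdown of the ubiquitin ligase RNF25. The members were taken by symbol: 6 symbols were listed (CEBPA, CEBPB, CEBPD, CEBPE, CEBPG and CEBPZ), and 5 of the 30267 genes in the table carried one of them. CEBPE was not analysed here. The comparison asks how gene expression differs when RNF25 is reduced. All 5 members passed the filter on low values, set at a normalized count of 10 or more in 3 or more libraries, as did 16554 genes in all.

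The 3 shControl libraries came from SW839 cells with the empty pLKO vector, and the 3 shRNF25 libraries from SW839 cells with an RNF25 hairpin delivered by lentivirus. Cells of both groups were RPMI-grown and puromycin-selected, and carried no other alteration that the labels name. The library names give a single hairpin, so that an effect of the hairpin outside RNF25 cannot be told apart from the loss of RNF25. The treatment text attached to every library, controls included, speaks of the hairpin plasmid, and the groups rest on titles, genotype labels and library names. The design text calls the libraries biological triplicates, with no culture or passage named, so that p-values measure the spread between these libraries.

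Between 18647460 and 19943154 reads were counted on genes per library. RNF25 had normalized counts of 694.2, 533.5 and 536.4 in shControl and 214.1, 245.7 and 265.0 in shRNF25, a log2 fold change of -1.27 (limma, SE 0.15, adjusted p = 0.000585). The shControl libraries were less alike than the shRNF25 libraries, with a median coefficient of variation over tested genes of 18.2% against 6.7%. The names of the shControl libraries follow no common numbering, whereas those of the shRNF25 libraries form a numbered series. The names do not tell whether the libraries of a group were made together. Such a difference could not be told apart from the knockdown and was not tested. Of 10 tested renal carcinoma markers, 1 was called lower (KRT7, log2 fold change -0.72) and 1 higher (VIM, 1.31), against 7.1% and 8.65% of all tested genes. KRT7 kept its call in 11 of 16 alternatives, losing it by quantile scaling (-0.22), without shControl replicate 3 (-0.50) and without any 1 shRNF25 library. The summed normalized count of the list was 93815 to 135953 in shControl and 96069 to 99647 in shRNF25. The defining marker CA9 had between 2 and 47 reads per library and was not tested. The table held 8 leukocyte markers, of which 3 passed the filter, and their list summed to 64.1 to 79.0 in shControl and 67.7 to 97.5 in shRNF25. Of those 3, ITGAM was called higher (log2 fold change 0.86, limma, adjusted p = 0.0465) and 2 were not called. ITGAM held 17 to 55 reads per library and kept its call in 5 of 15 alternatives. Of 9 fibroblast and endothelial markers 5 passed, of which CDH5 fell (log2 fold change -4.12, limma, adjusted p = 0.000213) and KDR rose (1.78, adjusted p = 0.00116). CDH5 passed the filter only through the shControl libraries, so that it could be called only lower. The list summed to 1596 to 1987 and 1366 to 1667, most of it COL1A1, and the defining marker DCN had at most 1 read in any library. The part of these markers in the results was not tested. In bulk RNA, fewer cells of a type and less RNA per cell cannot be told apart.

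C/EBP proteins are basic leucine zipper (bZIP) factors that bind DNA as dimers, with each other or with other bZIP proteins. C/EBPβ and C/EBPδ, long known as NF-IL6 and NF-IL6β, act with NF-κB at acute-phase and cytokine genes, C/EBPα drives differentiation of liver, fat and myeloid cells, and C/EBPγ lacks an activation domain and pairs with ATF4 in the amino acid response. CEBPZ shares the name and the ability to bind CCAAT boxes, but it is not a bZIP protein and belongs with the nucleolar NOC proteins that build the large ribosomal subunit.

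The promoter letters show which regulatory motifs lie beside the genes whose levels are given next. The stretch directly upstream of the outermost RefSeq start of CEBPB (GRCh38.p14, chr20:50190333-50190582, plus strand) is printed because CEBPB is the member that changed. GC boxes (GGGCGG on either strand) occur 4 times in it, and 75.6% of its bases are G or C.

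CEBPB upstream: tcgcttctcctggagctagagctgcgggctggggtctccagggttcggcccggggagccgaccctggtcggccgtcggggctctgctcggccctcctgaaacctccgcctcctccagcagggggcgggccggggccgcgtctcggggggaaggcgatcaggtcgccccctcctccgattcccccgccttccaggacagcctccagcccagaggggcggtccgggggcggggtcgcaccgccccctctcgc

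Motifs were searched on both strands in the 250 bases before each RefSeq start, and sites of 30 bases are shown for CEBPB, CEBPA and CEBPG with the match in capitals. The CEBPB sites are chr20:50190789-50190818 (TATAAA, 29 bases before the start at 50190830) and chr20:50190749-50190778 (an NF-κB pattern of GGGA, any 4 bases and CC, 71 bases before it). Both lie inside the exon that GENCODE 29 gives CEBPB, and the CCAAT sites of CEBPG given below also lie inside a GENCODE 29 exon of CEBPG. The CEBPA site is chr19:33302547-33302576 on the minus strand (TATAAA, 30 bases before the start). The CEBPG sites are chr19:33374060-33374089 (TGATGCAA, the composite element read by ATF4 with a C/EBP partner, 42 bases before the start at 33374113) and chr19:33373612-33373641 (CCAAT, read as ATTGG, 85 bases before the start at 33373709).
CEBPB TATA: acgggccgccctTATAAAtaaccgggctca
CEBPB NF-κB pattern: gcggcgcggcGGGAGGGGCCggcgtgacgc
CEBPA TATA: cggcctgccgggTATAAAagctgggccggc
CEBPG composite: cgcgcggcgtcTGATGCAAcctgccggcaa
CEBPG CCAAT: agcctgcccacgATTGGtcgactgggctgc

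Over all 35116 RefSeq windows, 10.7% hold TATAAA, 22.6% the NF-κB pattern, 0.772% TGATGCAA, 32% CCAAT and 42.6% a GC box. A C/EBP motif, TTGCNNAA, is in 9.05% of all windows and in none of the windows matched for CEBPA, CEBPB, CEBPG or CEBPZ. TGACG, part of a cyclic AMP response element and present in 21.2% of windows, lies 57 bases before the CEBPB start at 50190830 and 174 bases before the CEBPZ start, where it is the only motif found. The same CEBPB window holds CCAAT 245 bases before the start, and that of CEBPG a further CCAAT at 24. A match describes letters and is not a measured binding site.

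CEBPB was the C/EBP gene that fell after RNF25 knockdown. It is a single-exon gene on the plus strand of chromosome 20 (GRCh38, GENCODE 29, 50190734 to 50192689), and it had normalized counts of 2682, 3365 and 3343 in shControl and 1760, 1761 and 1814 in shRNF25. Every shRNF25 library lay below every shControl library, and shControl replicate 1 was the lowest of its group. The mean went from 3130 ± 388.2 (SD, n = 3) to 1778 ± 30.7 (SD, n = 3), or 56.8% of control. The log2 fold change was -0.81 (limma, SE 0.116, adjusted p = 0.00167), a fall of 1.75-fold with a 95% interval of 1.46 to 2.10. Counting error was at most 2.29% of the count in a library, since between 1903 and 3280 reads lay behind each value. The exact permutation test gave p = 0.1, the smallest that 3 against 3 libraries allow. Among the 5 members, 1 was called lower at an adjusted p under 0.05 and a fold change of at least 1.5, against 7.1% of all tested genes. No member was called higher by limma, edgeR or DESeq2, none rose at an unadjusted p under 0.05 (0 of 5), and 8.65% of tested genes were called higher. At an adjusted p under 0.05 alone, 21.3% of tested genes passed in either direction, as did 1 member. The groups did not overlap for 42.5% of tested genes, and for 1 of the 5 members.

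**Figure D1:**
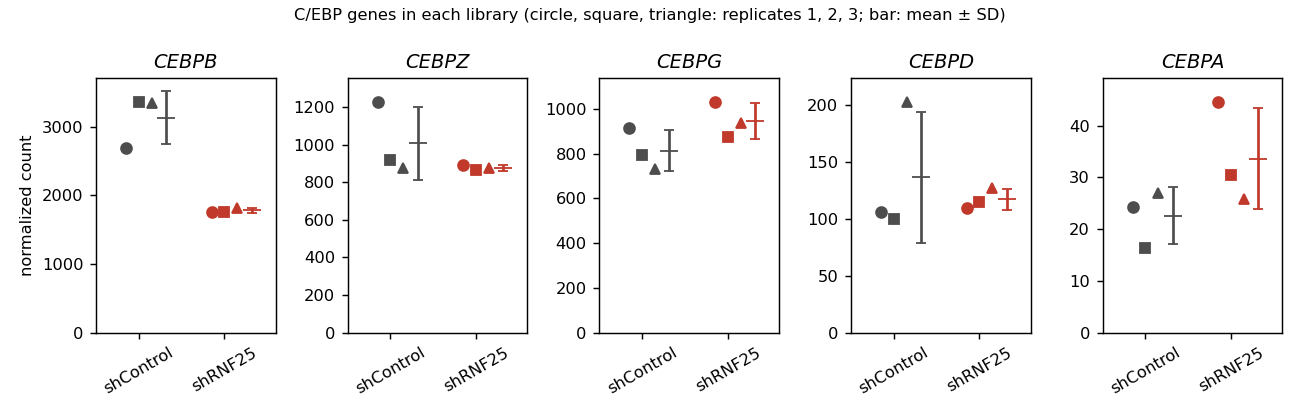
Normalized counts of each C/EBP gene (vertical axis, a separate scale for each gene) in the 3 shControl and 3 shRNF25 libraries, with the mean and SD beside the points. CEBPB lies between 2682 and 3365 in shControl and between 1760 and 1814 in shRNF25, and the groups of the other 4 genes overlap.

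CEBPD encodes the other NF-IL6 factor and is an immediate-early gene in many cells. It lies on the minus strand of chromosome 8 from 47736909 to 47739086 and had normalized counts of 106.1, 99.5 and 202.9 in shControl and 109.3, 114.5 and 126.8 in shRNF25. The third shControl library stood apart from the rest, and the other 5 values lay close together. The shControl mean of 136.2 ± 57.9 and the shRNF25 mean of 116.9 ± 8.95 (SD, n = 3 each) gave a log2 fold change of -0.14 (limma, SE 0.259, adjusted p = 0.730; 95% interval -0.73 to 0.44). Without shControl replicate 3 the estimate was 0.18 (adjusted p = 0.420), so that its sign rested on that library. The interval spans from a fall of 1.65-fold to a rise of 1.36-fold, which overlaps the interval of CEBPB.

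CEBPG lies on the plus strand of chromosome 19 from 33373330 to 33382686. Its normalized counts were 914.2, 796.2 and 730.7 in shControl and 1033, 873.6 and 937.0 in shRNF25. The groups overlapped through shControl replicate 1, which was above shRNF25 replicate 2. The shControl mean of 813.7 ± 93.0 and the shRNF25 mean of 948.0 ± 80.4 (SD, n = 3 each) gave a log2 fold change of 0.22 (limma, SE 0.125, adjusted p = 0.235; 95% interval -0.06 to 0.50). Without shControl replicate 1 it was 0.31 with an adjusted p of 0.0296, below the fold of 1.5 asked for a call.

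CEBPA lies on the minus strand of chromosome 19 from 33299934 to 33302564, with its start 70766 bases from that of CEBPG. It was the member with the fewest reads, between 16 and 49 in a library. Its normalized counts were 24.3, 16.4 and 27.0 in shControl and 44.6, 30.5 and 25.7 in shRNF25. The groups overlapped through shRNF25 replicate 3, which was below shControl replicate 3. The log2 fold change was 0.55 (limma, SE 0.294, adjusted p = 0.218), and the 95% interval ran from -0.12 to 1.21. Counting error reached 25% of the value in shControl replicate 2, and the coefficient of variation between the shRNF25 libraries was 29.3%, above that of 94.3% of tested genes.

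CEBPZ lies on the minus strand of chromosome 2 from 37201612 to 37231713. It had normalized counts of 1230, 920.3 and 874.2 in shControl and 892.1, 864.4 and 874.1 in shRNF25. Apart from shControl replicate 1, the 5 values fell within a narrow band. The log2 fold change was -0.18 (limma, SE 0.141, adjusted p = 0.383; 95% interval -0.50 to 0.13), and without shControl replicate 1 it was -0.03. The coefficient of variation in shRNF25 was 1.6% for CEBPZ and 1.73% for CEBPB, against 7.66% for CEBPD and 8.48% for CEBPG.

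**Figure D2:**
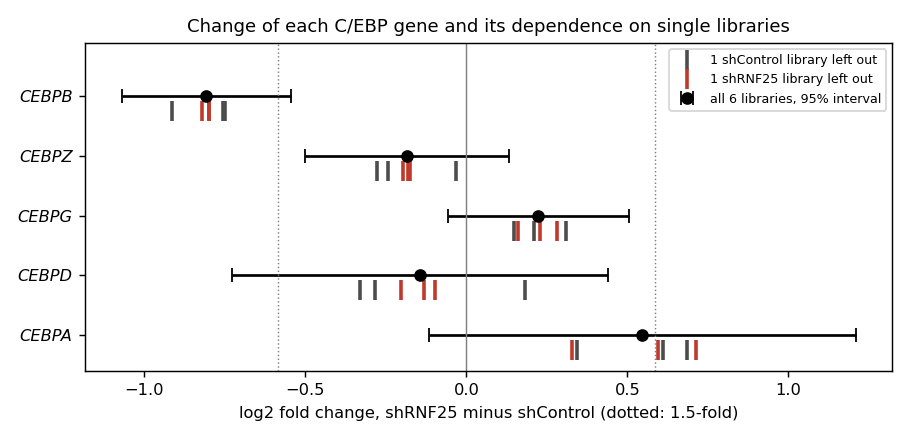
Log2 fold change of each C/EBP gene, shRNF25 minus shControl (horizontal axis), with its 95% interval from limma and, as ticks beneath, the estimate with each library left out in turn. The ticks of CEBPB run from -0.91 to -0.75, and those of CEBPD cross 0, reaching 0.18 without shControl replicate 3.

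Levels of different genes were compared per kb of exon. CEBPB had the highest level of the 5, at 1600 ± 198.5 normalized counts per kb in shControl and 909.2 ± 15.7 in shRNF25 (SD, n = 3). CEBPZ followed at 277.8 ± 53.4 and 241.6 ± 3.87, then CEBPG at 184.5 ± 21.1 and 214.9 ± 18.2. CEBPD stood at 62.5 ± 26.6 and 53.7 ± 4.11, and CEBPA at 8.58 ± 2.09 and 12.8 ± 3.74. The order was the same in both groups, and neighbours in it did not overlap within a group. With the longest transcript as the length, CEBPG (212.6 to 251.5) and CEBPZ (249.6 to 257.6) overlapped in shRNF25.

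CEBPB made up 74.8% ± 4.69 of the summed level of the 5 genes in shControl and 63.5% ± 1.14 in shRNF25 (SD, n = 3). The share of CEBPG was 8.71% ± 1.58 and 15% ± 1.06, and that of CEBPZ 13.2% ± 3.47 and 16.9% ± 0.213. Shares within a library add up to the whole, so that a smaller part of CEBPB makes the other parts larger. The level of CEBPZ itself was 277.8 per kb in shControl and 241.6 in shRNF25, and neither CEBPG nor CEBPZ was called. Among the 4 bZIP members, CEBPB held 86.1% ± 2.17 of the sum in shControl and 76.4% ± 1.31 in shRNF25. The sum over those 4 was 1856 ± 190.5 and 1191 ± 24.5 per kb, a difference in log2 of -0.64, with no overlap between the groups (exact permutation test, p = 0.1). Since CEBPB makes up most of that sum, it is not a result separate from that of CEBPB. These shares are of RNA and say nothing of the proteins, of which CEBPB makes several from 1 transcript.

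**Figure D3:**
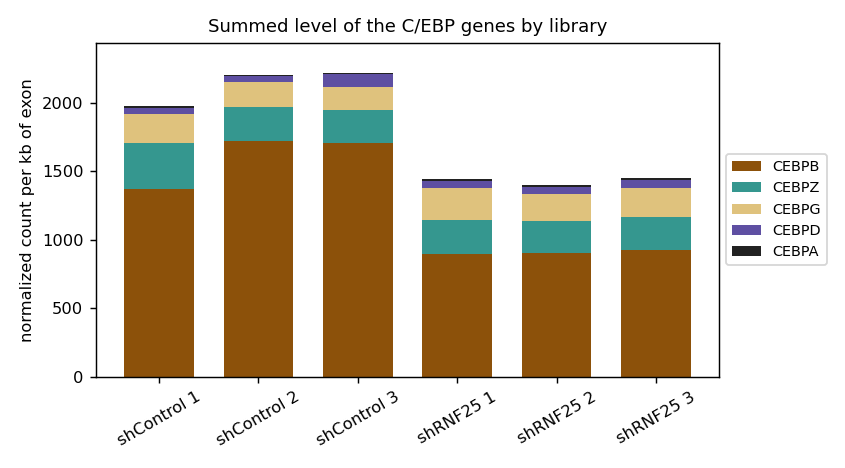
Normalized counts per kb of exon (vertical axis) of the C/EBP genes stacked for each of the 6 libraries. The CEBPB part is between 1371 and 1721 in shControl and between 900.0 and 927.4 in shRNF25, and CEBPA is the thin band on top.

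A ratio of 2 genes within a library does not depend on how the library was scaled. For 5 of the 10 pairs of members the groups did not overlap, and 4 of those 5 contained CEBPB. These 4 share the CEBPB values and are not separate results. No share over other gene pairs was at hand, and of single tested genes 42.5% did not overlap, so that the count of pairs is descriptive. The log2 ratio of CEBPB to CEBPG was 1.55, 2.08 and 2.19 in shControl and 0.77, 1.01 and 0.95 in shRNF25, a difference of -1.03. That of CEBPB to CEBPZ differed by -0.62 and that of CEBPB to CEBPD by -0.66, while CEBPA to CEBPB differed by 1.35. The remaining pair was CEBPG to CEBPZ, at -0.43, -0.21 and -0.26 in shControl and 0.21, 0.02 and 0.10 in shRNF25. CEBPG was below CEBPZ in each shControl library and above it in each shRNF25 library, on counts not divided by length. By exact permutation tests these pairs had p = 0.1, and adjusted over the 10 pairs 0.2, so that none passed a threshold of 0.05, which the design cannot reach.

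**Figure D4:**
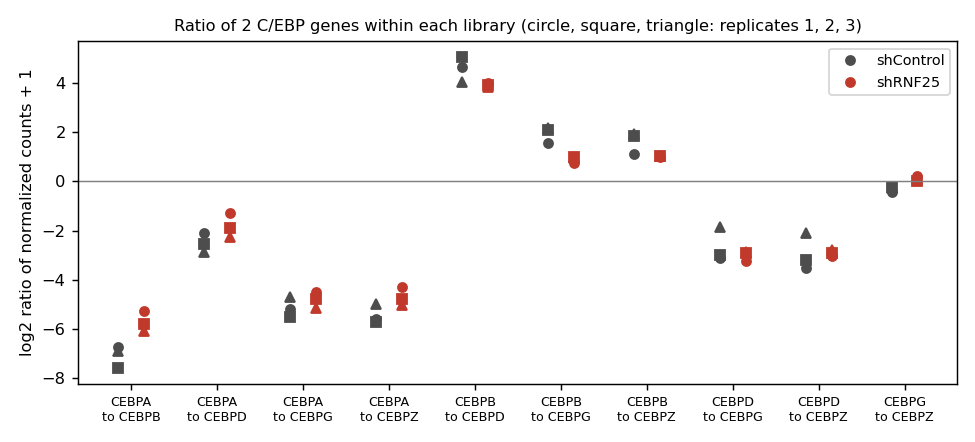
Log2 ratio of the normalized counts of each pair of C/EBP genes (vertical axis) in each shControl and shRNF25 library. The groups separate for the 4 pairs with CEBPB and for CEBPG to CEBPZ, which goes from -0.30 on average to 0.11.

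Genes beside or across the members were read for comparison. CEBPB-AS1, which overlaps CEBPB on the opposite strand, had normalized counts of 15.5, 12.3 and 11.9 in shControl and 20.0, 17.5 and 14.3 in shRNF25 (log2 fold change 0.36, limma, adjusted p = 0.394). Whether reads were counted by strand is not given in the sources used here, so that reads of these partners may not be separable. PTPN1, the next protein-coding gene downstream of CEBPB with a gap of 317632 bases, had a log2 fold change of 0.01 (limma, adjusted p = 0.951). CEBPA-DT starts 293 bases from CEBPA and runs the other way, and it had normalized counts of 5.53, 11.3 and 25.9 in shControl and 24.6, 19.4 and 18.1 in shRNF25. The groups overlapped through shControl replicate 3, with a log2 fold change of 0.74 (limma, adjusted p = 0.297) that was 1.27 without that library (adjusted p = 0.0394) and 0.24 without shControl replicate 1 (adjusted p = 0.641).

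CEBPZOS overlaps CEBPZ on the opposite strand and encodes a small mitochondrial protein. Its normalized counts were 892.1, 486.3 and 470.6 in shControl and 436.5, 514.4 and 471.8 in shRNF25, so that shControl replicate 1 was the high library for both genes of the pair. PRKD3, which encodes a protein kinase D and lies upstream of CEBPZ with a gap of 18789 bases, fell, with a log2 fold change of -0.69 (limma, SE 0.133, adjusted p = 0.00649) that was -0.55, under the fold of 1.5, without shControl replicate 1. The other 5 tested neighbours (PTPN1, PRKDC, SPIDR, PEPD and NDUFAF7) lay between -0.04 and 0.10, with a lowest adjusted p of 0.656.

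The genes with the most similar pattern were found by the distance between log2 values over the 6 libraries, each centred on its own mean. For CEBPB they were DYSF (distance 0.0744, log2 fold change -0.79), which encodes the membrane repair protein dysferlin, the mitochondrial isocitrate dehydrogenase gene IDH2 (0.0850, -0.87) and the transcription factor gene OVOL1 (0.115, -0.75). DYSF had normalized counts of 6698, 8122 and 8275 in shControl and 4398, 4532 and 4403 in shRNF25, low in the first control as CEBPB was. PRSS12, HS6ST2 and RHOF were nearest to CEBPD (distances 0.161, 0.221 and 0.230), all high in shControl replicate 3. MTF1, PSMD12 and MALT1 were nearest to CEBPZ (0.0599, 0.0693 and 0.0722), all high in shControl replicate 1. AC132008.2, NLRC3 and SAR1A were nearest to CEBPG (0.0706, 0.118 and 0.119), and SDS, AP000254.2 and ANKRD65 to CEBPA (0.242, 0.242 and 0.274). NLRC3, with 8 to 15 reads per library, and the genes nearest to CEBPA rested on few reads.

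Of the bZIP genes whose proteins can pair with C/EBP factors or bind near them, 18 were tested, 2 fell, 5 rose and 11 were not called. Their median log2 fold change was -0.17, against -0.01 over all tested genes. The shares called were 11.1% lower and 27.8% higher, against 7.1% and 8.65% of all tested genes. FOS, the AP-1 subunit, had normalized counts of 157.0, 181.6 and 564.5 in shControl and 1883, 2088 and 2087 in shRNF25 (log2 fold change 2.99, limma, adjusted p = 0.00114). All shRNF25 libraries were above all shControl libraries, among which replicate 3 was high, as it was for CEBPD. FOSB rose alike (2.51), and ATF3 (0.75, adjusted p = 0.0419) fell out of the calls with edgeR, with no filter on low values and when any 1 library other than shControl replicate 3 was left out. HLF and TEF encode proline- and acid-rich bZIP factors. HLF had 2, 2 and 0 reads in shControl and 39, 32 and 17 in shRNF25 and was called higher. It passed the filter only through the shRNF25 libraries, so that it could be called only higher. TEF had a log2 fold change of 0.88 (limma, adjusted p = 0.00265).

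NFIL3, a bZIP repressor, fell by 0.73 on the log2 scale and FOSL2 by 0.72. DDIT3, which encodes the C/EBP-like inhibitor CHOP, had normalized counts of 151.4, 218.5 and 213.7 in shControl and 257.0, 232.7 and 240.2 in shRNF25. Those groups did not overlap, but the log2 fold change of 0.34 was not called (limma, adjusted p = 0.184). ATF4, the partner of C/EBPγ, was at 7104, 7654 and 6975 in shControl and 6708, 6203 and 6105 in shRNF25, a log2 fold change of -0.19 (limma, adjusted p = 0.202).

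Of genes that act on C/EBP proteins or their expression 23 were tested, with 0 called lower, 1 called higher and 22 not called, and a median log2 fold change of -0.03. The share called higher was 4.35%, against 8.65% of all tested genes, and 7.1% of all tested genes were called lower. By edgeR and DESeq2 0 were called lower as well. At an unadjusted p under 0.05, 3 were lower, and at an adjusted p under 0.05 also 3, each with a fold under 1.5. On the other side 3 were higher at an unadjusted p under 0.05 and 2 at an adjusted p under 0.05. The called gene was TRIB2, which encodes a pseudokinase that brings C/EBPα to the ubiquitin ligase COP1. Its normalized counts were 700.9, 704.9 and 710.2 in shControl and 1332, 1334 and 1384 in shRNF25. The values were tight in both groups, with a log2 fold change of 0.94 (limma, SE 0.0978, adjusted p = 0.000325). TRIB1, which acts likewise, had 2472, 1806 and 2168 in shControl and 2343, 2548 and 2378 in shRNF25, and was not called (0.18, limma, adjusted p = 0.340), although without shControl replicate 1 its adjusted p was 0.0349 at a log2 fold change of 0.29. TRIB3, a relative that binds ATF4 and CHOP, had 3952, 5219 and 4841 in shControl and 7651, 6222 and 6353 in shRNF25, without overlap, and its log2 fold change of 0.53 (limma, adjusted p = 0.0230) was under the fold of 1.5. The row named STAT3 held 1, 0, 0, 0, 0 and 4 reads and was not tested. Whether that row stands for the whole gene was not tested.

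Acute-phase and cytokine genes, at which C/EBPβ and NF-κB are known to act together, made up the list that moved most. Of 42 symbols, 38 were in the table and 26 were tested, of which 20 fell, 3 rose and 3 were not called, with a median log2 fold change of -3.73 against -0.01 over all tested genes. The shares called were 76.9% lower and 11.5% higher, against 7.1% and 8.65% of all tested genes. The list was compiled with earlier results of these data known and is not independent evidence of its direction. IL6, the cytokine after which NF-IL6 was named, had normalized counts of 4543, 3551 and 3016 in shControl and 268.8, 234.6 and 264.0 in shRNF25. It fell by 3.83 on the log2 scale (limma, SE 0.154, adjusted p = 1.91e-06), with no overlap. The log2 fold change of CEBPB, -0.81, was smaller than that of each of the 20 genes.

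IL1B, the proinflammatory cytokine, fell from 27438, 23458 and 19808 to 318.0, 212.4 and 295.5 (log2 fold change -6.42, limma, adjusted p = 4e-07), and complement C3 from 20041, 19221 and 12339 to 456.5, 434.0 and 409.9 (-5.28). The acute-phase gene SAA1 went from 668.8, 1089 and 864.5 to 4.56, 1.85 and 5.72, and its near-identical copy SAA2 from 168, 143 and 108 reads to 2, 0 and 1, so that reads of the pair may be split uncertainly. S100A8, which encodes a calprotectin subunit, had 105, 174 and 94 reads in shControl and 1 in each shRNF25 library. SAA1, SAA2, S100A8, TNF and CSF3 passed the filter only through the shControl libraries, so that they could be called only lower. Placing SAA2 and S100A8 at a floor of 3 reads per library left the median of the list at -3.73. The genes that rose were FGB, a fibrinogen chain (log2 fold change 2.67), and the matrix metalloproteinase genes MMP3 (1.66) and MMP1 (0.86). FGB had between 3 and 5 reads and MMP3 between 1 and 7 reads in the shControl libraries. FGB and MMP3 passed the filter only through the shRNF25 libraries, so that they could be called only higher. Without any 1 of those libraries both were no longer tested and MMP1 lost its call, which left 0 called higher. Without shControl replicate 2, 1 of the list was called higher. IL1RN, PTX3 and SOCS3 were not called.

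Promoters of that list were searched for C/EBP letters. A RefSeq window was at hand for 31 of its genes, and TTGCNNAA was in the window of 9 (29%), against 11% of the 27305 symbols with a window. The NF-κB pattern was in 14 (45.2%, against 25.8% of symbols), and both motifs in 5 (16.1%, against 2.56%). These shares carry no test. Of 7 tested genes with the C/EBP motif 5 fell, 1 rose and 1 was not called, and of 13 without it 11 fell, 0 rose and 2 were not called. The sites of the 7 are shown on the strand of each gene, with 11 bases on either side where the window allows, because they place the letters read by C/EBP factors beside genes that moved in opposite directions (GRCh38.p14, motif in capitals). Where the match is on the other strand, the reverse complement of the motif is in capitals.
IL6, chr7:22727034-22727063: aggacgtcacaTTGCACAAtcttaataagg
CXCL2, chr4:74099365-74099394: gttggcgggagTTACGCAAgacagtcagac
IL1B, chr2:112836976-112837005: tggtgatacatTTGCAAAAtgtgtcatagt
PTGS2, chr1:186680538-186680567: ccccaccgggcTTACGCAAtttttttaagg
PTX3, chr3:157436683-157436712: gcggtttaataTTGTGCAActtccacattt
LCN2, chr9:128149299-128149328: gtccctctgtcTTGCCCAAtcctgaccagg
FGB, chr4:154562868-154562897: ctgggaagatgTTGCTTAAatgataaaatg

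The site of IL6 begins 155 bases before its RefSeq start and that of LCN2, the iron-binding lipocalin 2, 143 bases before its start. LCN2 fell from 65323, 64778 and 52351 to 3585, 3954 and 3810 (log2 fold change -4.00, limma, adjusted p = 5.51e-07). PTGS2, the inducible cyclooxygenase, fell from 1044, 807.5 and 3994 to 49.2, 51.7 and 57.2 (-4.81), with shControl replicate 3 high again. CXCL2, a neutrophil-attracting chemokine, fell from 1125, 1389 and 1999 to 179.5, 181.9 and 314.6 (-2.74). PTX3, a pentraxin, had both motifs as these 4 genes do, and its values of 781.5, 1055 and 1601 in shControl and 1288, 1210 and 1640 in shRNF25 overlapped (0.32, limma, adjusted p = 0.371).

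**Figure D5:**
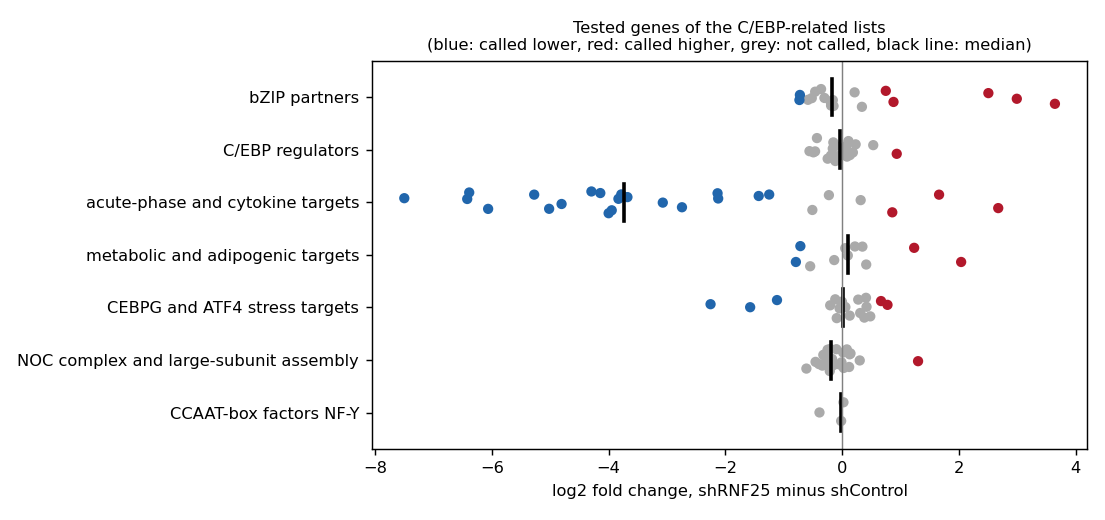
Log2 fold change, shRNF25 minus shControl (horizontal axis), of each tested gene in 7 lists related to C/EBP factors, colored by call. The acute-phase and cytokine genes spread down to -7.50 around a median of -3.73, and the medians of the other lists lie between -0.19 and 0.10.

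Metabolic and adipogenic genes known as targets of C/EBPα and C/EBPβ gave 11 tested members, of which 2 fell, 2 rose and 7 were not called, with a median log2 fold change of 0.10. The shares called were 18.2% in each direction, against 7.1% lower and 8.65% higher over all tested genes. FABP4, the fatty acid binding protein of fat cells, had normalized counts of 35.4, 31.8 and 17.3 in shControl and 115.7, 104.4 and 122.0 in shRNF25 (log2 fold change 2.04, limma, adjusted p = 0.00110), and PLIN1, a lipid droplet coat protein, rose as well (1.23, adjusted p = 0.010), although not without shRNF25 replicate 1 (0.0692) or replicate 3 (0.0502). PLIN1 held between 10 and 43 reads per library. PLIN2, a lipid droplet protein of most cells, fell by 0.79 on the log2 scale and the insulin receptor gene INSR by 0.72. Of the granulocyte genes that C/EBPε and C/EBPα drive in myeloid cells 9 were in the table and 1 was tested. It was the integrin gene ITGAM (log2 fold change 0.86, limma, adjusted p = 0.0465), which was called in 5 of 15 alternatives (not by DESeq2, and among the leave-outs only without shControl replicate 1) and which held between 17 and 55 reads per library.

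Stress genes that C/EBPγ and ATF4 activate gave 21 tested members, of which 3 fell, 2 rose and 16 were not called, with a median log2 fold change of 0.02. The shares called were 14.3% lower and 9.52% higher, against 7.1% and 8.65% of all tested genes. DDIT4, an inhibitor of mTORC1, fell from 669.9, 1215 and 1084 to 249.7, 150.5 and 213.5 (log2 fold change -2.25, limma, adjusted p = 0.000422). VEGFA, the angiogenic factor, fell by 1.58 and STC2, a secreted glycoprotein, by 1.12 on the log2 scale. The genes that rose, PHGDH (0.78) and PSAT1 (0.67), encode enzymes of serine synthesis. Without any 1 shRNF25 library, both had an adjusted p of 0.0544 or more, and without a control library PHGDH (0.57, shControl replicate 1) and PSAT1 (0.46, shControl replicate 3) came under the fold of 1.5.

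The list for CEBPZ, of NOC proteins and other ribosome assembly factors of either subunit, also held the RNA methyltransferase genes METTL3 and METTL14. Of its 27 tested genes 0 fell, 1 rose and 26 were not called, with a median log2 fold change of -0.19. The share called higher was 3.7%, against 8.65% of all tested genes, of which 7.1% were called lower. At an unadjusted p under 0.05, 5 were lower, and edgeR called 0 and DESeq2 1 of them. At an adjusted p under 0.05, 1 was lower (NOC4L, a factor of the small subunit), with a fold under 1.5. PPAN rose, from 69.6, 190.8 and 158.7 to 323.5, 314.9 and 314.6 (log2 fold change 1.3, limma, adjusted p = 0.0190), but its adjusted p was between 0.0670 and 0.0820 without any 1 shRNF25 library, and it shares exons with a read-through gene into P2RY11. The 3 NF-Y genes, which encode the main CCAAT-binding complex, gave 0 called in either direction by limma, edgeR and DESeq2. Of them 1 was lower at an unadjusted and also at an adjusted p under 0.05 (limma), with a fold under 1.5.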

How the data were processed

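RNA from 6 SW839 libraries had been depleted of ribosomal RNA and made into stranded libraries. The submitters' processing notes name fastp, HISAT2, HTSeq and GRCh38, with no roles. The annotation and strand setting are not given in the sources used here. The authors deposited a normalized count signal for 30267 genes by symbol. Dividing by each library's smallest step returned whole reads for 100% of values (tolerance 0.01 reads), with scaling factors of 0.905 to 1.10, as DESeq2 computes.

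Values were transformed as log2(normalized count + 1), a scale that understates changes of low genes, and fitted with limma 3.58.1 (eBayes with a trend, group only) in R 4.3.3 on 16554 genes, with Benjamini-Hochberg adjustment. A call needed an adjusted p under 0.05 and a fold change of at least 1.5, the criteria of the study. Single values were also tested by two-sided exact permutation. The limma step was also run on simulated counts with the same dispersion for every gene and both groups, and with changes only in well-counted genes. That run checks the code and does not bear on the unequal spread of the groups or on genes with few reads.

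Alternatives were edgeR 4.0.16 and DESeq2 1.42.0 on recovered reads, other pseudocounts, filters, scalings, library weights, a replicate block, and each library left out. Members and lists were chosen with earlier results of these data known. Named genes are the members, RNF25, adjacent genes, up to 5 called genes per list with the largest change, the 3 genes nearest each member in pattern, and DDIT3, ATF4, TRIB1 and IL6. CXCL2, LCN2, PTGS2, PTX3 and FGB were named for their motifs. CA9, DCN, COL1A1, STAT3, TRIB3, NFIL3, FOSL2, MMP1, MMP3, IL1RN, SOCS3, TNF, CSF3, NOC4L, METTL3 and METTL14 were named after their values were seen. Positions come from GENCODE 29 and promoter windows from RefSeq (GRCh38.p14), which were read for CEBPA, CEBPB, CEBPG and CEBPZ of the members in the table. The member search left out windows on chromosome 8, so that CEBPD was not searched. Intervals from reads cover counting error only.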

Additional observations from a re-analysis of the deposited data

How the results depend on the processing

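CEBPB stayed lower and past the threshold in all 16 alternatives, between -0.91 and -0.70 on the log2 scale with adjusted p from 5.63e-08 (DESeq2) to 0.0169 (without shRNF25 replicate 1). With a fold change of at least 2 asked for, 0 members were called. With each library left out, CEBPD ranged from -0.33 to 0.18, changing sign without shControl replicate 3 (0.18), and CEBPG from 0.15 to 0.31, passing 0.05 without shControl replicate 1 (0.31). CEBPA (0.31 to 0.71) and CEBPZ (-0.28 to -0.03) kept sign and side. Acute-phase genes called higher numbered 3, 1 with a filter of at least 50, and 0 to 4 with a library left out, and those called lower 15 to 20. The filter itself sets part of these ranges. SAA1, SAA2, S100A8, TNF and CSF3 were not tested without any 1 shControl library. FGB and MMP3 were not tested without any 1 shRNF25 library, nor with the filter of 50. The bZIP partners gave 1 to 3 lower and 3 to 5 higher, and HLF was tested in 12 of the 16 alternatives, not without any 1 shRNF25 library. Neighbours near 0 changed sign: PRKDC was 0.17 by quantile scaling, 0.046 by median ratio and 0.0070 by edgeR, NDUFAF7 was 0.0059 by quantile scaling and 0.031 by median ratio, and with a library left out PTPN1 ranged from -0.011 to 0.030, PRKDC from -0.11 to 0.059, SPIDR from -0.056 to 0.16, PEPD from -0.050 to 0.23 and NDUFAF7 from -0.085 to 0.0047. The cause was not tested. Over all genes, leaving out 1 shRNF25 library gave 783 to 801 lower and 597 to 662 higher calls, against 1175 and 1432. Another scaling moved the median of all genes by at most 0.0656. Replicate numbers did not pair the libraries (correlations of deviations -0.0638, -0.0874 and 0.0471), and with the replicate block CEBPB had -0.81 (adjusted p = 0.00168) and no member's call changed. CEBPA rests on 16 to 49 reads per library.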

Other observations

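Over all 11370 tested genes with a RefSeq window, 1014 held the C/EBP motif TTGCNNAA, of which 8.97% were called lower and 10.5% higher, against 7.21% and 7.39% of the 10356 without it. The median log2 fold change was -0.03 in both. With both the C/EBP and the NF-κB letters, 385 genes gave 11.2% lower and 10.1% higher. The ATF4 and C/EBP composite TGATGCAA was in 76, of which 3.95% were lower and 7.90% higher. These shares carry no test.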
